A study of Homo sapiens with 8 samples.

Results

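Histone mRNAs were read on 8 Affymetrix arrays in AGS, an established cell line grown from a human stomach adenocarcinoma. The members are the genes whose platform symbol starts with H1-, H2AC, H2BC, H3C or H4C, together with H2AJ, H2AX, H2AZ1 and H2AZ2, where a probe set is assigned to that gene alone. The rule found 71 of the 18132 genes measured, on 125 of the 44988 single-gene probe sets. Of these, 61 are clustered, replication-dependent histone genes, 7 are variant genes (H1-7, H1-8, H1-10, H2AJ, H2AX, H2AZ1 and H2AZ2), and 3 encode no histone (the antisense RNA H1-10-AS1 and the pseudogenes H1-9P and H2BC20P). The labels give 4 arrays of control AGS cells and 4 of AGS cells treated with podofilox at 3.4 nM for 72 hours. No culture time is recorded for the control cells. All cells grew in medium with fetal bovine serum and antibiotics. Podofilox, also named podophyllotoxin, comes from plants and blocks microtubule growth by binding tubulin. AGS is 1 line, so nothing here bears on other gastric cells. The labels do not say whether control cells received a solvent, or whether replicates came from different cultures, so each p-value reflects array-to-array spread only, and that spread may be technical. RNA was extracted in bulk, and fewer cells in a given state and less mRNA per cell cannot be told apart.

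DNA is wound around octamers of the core histones H2A, H2B, H3 and H4, and linker histone H1 binds where the DNA enters and leaves. Dividing cells make most of this protein from clustered gene copies that are switched on in S phase, and the mRNAs of these genes end in a stem-loop in place of a poly-A tail. Many variant histones, H2A.Z among them, are made throughout the cell cycle from single genes whose mRNAs carry a tail. Some clustered genes can also give a tailed mRNA. The labels name the standard Affymetrix labelling protocol without its primer, so how well tail-less mRNAs were copied cannot be read from them.

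The promoters of these genes carry short elements by which the families are known. RefSeq promoters of assembly GRCh38.p14, from 250 bases before to 50 bases after the start, were matched by symbol for 63 of the 71 members. The members not matched are H1-10-AS1, H1-9P, H2AC12, H2BC20P, H3C11, H3C12, H4C1 and H4C3. Motifs were searched on both strands. The octamer ATTTGCAT, bound by OCT1, was in 14 of 18 clustered H2B promoters and 11 of 14 clustered H2A promoters, against 1.80% of all 27305 promoters. The core GGTCCG of the HINFP site was in 9 of 10 clustered H4 promoters, against 11.2% of all promoters. CCAAT was in 49 of 56 clustered and 6 of 7 variant promoters (35.7% of all), and TATAAA in 36 of 56 and 3 of 7 (11.95% of all). The octamer was in 0 of 7 variant promoters. These matches describe letters in the window and no bound site.

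Sequences are shown for 3 members that rose (H2BC21, H2AJ and H1-10) and for H2BC5, the H2B gene with the next highest difference. Each runs 5′ to 3′ on the strand of the named gene and stops at the base before its start, and capitals mark any of the 4 motifs on either strand. The H2BC21 stretch, chr1:149886683-149886917 on the minus strand, is the whole of the 235 bases between H2BC21 and H2AC20, which is read in the other direction. It holds 1 octamer, 3 CCAAT, 2 TATAAA and 2 GGTCCG matches, and 1 of the CCAAT matches overlaps a GGTCCG match.
H2BC21: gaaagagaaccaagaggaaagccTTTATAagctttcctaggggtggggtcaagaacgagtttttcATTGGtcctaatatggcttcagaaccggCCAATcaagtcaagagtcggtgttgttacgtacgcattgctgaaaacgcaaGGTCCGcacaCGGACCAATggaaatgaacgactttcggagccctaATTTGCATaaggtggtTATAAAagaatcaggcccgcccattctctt
The 150 bases before H2BC5, chr6:26157971-26158120 on the plus strand, hold 3 CCAAT and 1 TATAAA matches and 0 octamers.
H2BC5: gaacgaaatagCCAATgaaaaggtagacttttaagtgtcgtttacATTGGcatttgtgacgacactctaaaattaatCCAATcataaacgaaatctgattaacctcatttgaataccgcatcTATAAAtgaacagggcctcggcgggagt
The 150 bases before H2AJ, chr12:14774255-14774404 on the plus strand, hold 3 CCAAT matches and 0 of the other motifs.
H2AJ: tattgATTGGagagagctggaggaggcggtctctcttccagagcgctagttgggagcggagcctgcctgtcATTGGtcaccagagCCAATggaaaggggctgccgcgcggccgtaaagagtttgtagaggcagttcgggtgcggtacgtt
The 150 bases before H1-10, chr3:129316287-129316436 on the minus strand, hold 3 GGTCCG and 1 TATAAA matches and 0 CCAAT.
H1-10: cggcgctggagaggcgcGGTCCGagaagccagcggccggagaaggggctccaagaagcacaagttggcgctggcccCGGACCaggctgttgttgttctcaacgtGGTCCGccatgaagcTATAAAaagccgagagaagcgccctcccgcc

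All values are log2 expression values made with RMA (robust multi-array average), and a difference is podofilox minus control. Each gene was read from its brightest single-gene probe set, and rose or fell is written where limma's two-sided test, with Benjamini-Hochberg adjustment over all 18132 genes, gave an adjusted p under 0.05. Brightness depends on the probes as well as on the mRNA, so levels of different genes are not set against each other. Most clustered histone genes were dim. Of the 61, 55 lay below the median gene (6.99) and 40 lay under 5. The array holds 23 background probe sets named for the number of G and C bases in their probes, and their mean rose from 2.81 at 3 such bases to 4.04 at 15, 5.65 at 18 and 11.1 at 25. Of the clustered members, 15 lay below the background set of 15 and 49 below that of 18, and of the variant genes 0 and 2 did. The base composition of the histone probes was not analysed here, so these counts mark a range and make no detection call. The clustered members above the median gene were H4C3, H2BC12, H1-2, H4C12, H3C8 and H2BC5, and the variants above it were H1-10, H2AX, H2AZ1 and H2AZ2.

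**Figure D1:**
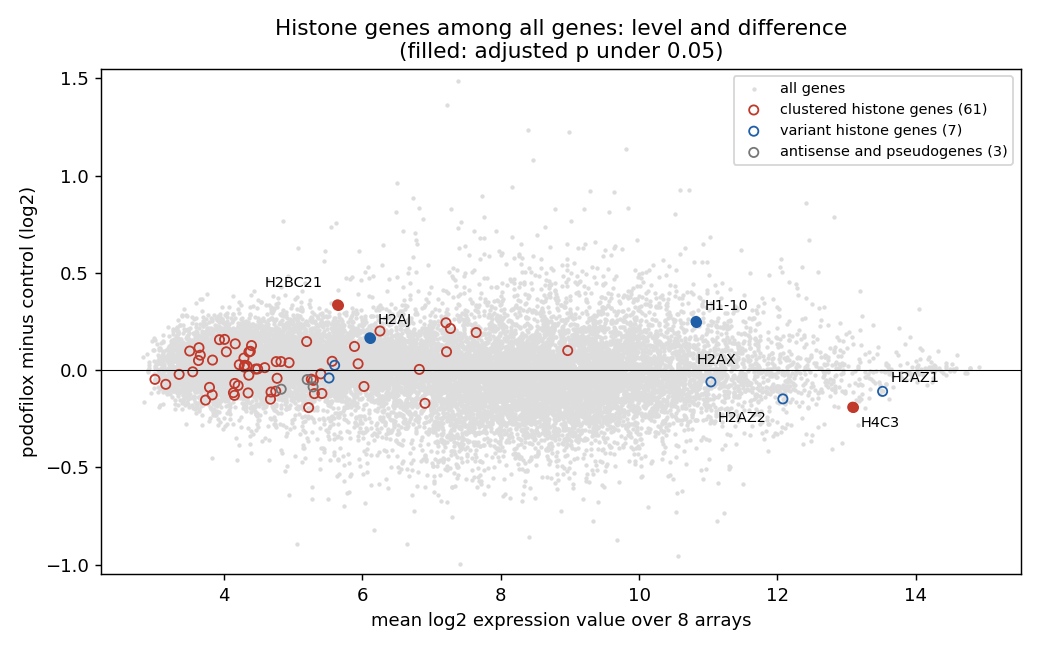
Difference between podofilox and control (vertical axis, log2) against the mean log2 value over 8 arrays (horizontal axis) for all genes in grey, 61 clustered histone genes in red, 7 variant genes in blue and 3 antisense or pseudogenes in dark grey. Filled points passed the test. Most clustered genes sit at the dim end on the left around a difference of 0, and the 4 filled members are H4C3, H2BC21, H1-10 and H2AJ.

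Few clustered histone genes passed the test between podofilox and control. Of 61, 1 rose (H2BC21), 1 fell (H4C3) and 59 did not pass, where 8.55% of all genes rose and 12.5% fell (21% in either direction). The 2 groups did not overlap for H2AC8, with podofilox above, and for H4C3, with podofilox below, where 10.6% and 15.6% of all genes were separated in those directions. Brightness moves with these shares. Of the 55 clustered genes below the median gene 1 rose and 0 fell, where 4.7% and 3.46% of all dim genes did. Of the 6 above it 0 rose and 1 fell, where 12.4% and 21.5% of all bright genes did. The median difference of the 61 genes was 0.02, beside 0.0069 for all genes, and their differences ran from -0.19 (H2BC6, not past the test) to 0.34 (H2BC21), with 35 above 0 and 26 below. That split turned to 27 above 0 after quantile normalization once more. At an unadjusted p under 0.05, 8 of the 61 differed (H2AC6, H2AC8, H2BC5, H2BC21, H3C11, H3C12, H4C3 and H4C12), or 5 of the 55 dim and 3 of the 6 bright ones. Of all genes 33.3% did, with 18.9% of the dim and 47.8% of the bright. H2AC8, an H2A gene, stood at 5.88, 5.85, 5.76 and 5.81 in control cells and at 5.91, 6.04, 5.88 and 5.95 with podofilox. Its groups are separated narrowly, and the difference of 0.12 did not pass (limma adjusted p = 0.112). The groups overlapped on its other probe set, which differed by -0.03 and did not pass.

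By family, the 6 linker genes H1-1 to H1-6 had a median difference of 0.03, the 15 H2A genes -0.0094, the 18 H2B genes 0.04, the 10 H3 genes 0.06 and the 12 H4 genes -0.03. The median over all genes was 0.0069. No clustered gene of the H1, H2A or H3 families passed the test.

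H4C3, which encodes the core histone H4, was the clustered gene that fell. In replicate order its values were 13.15, 13.18, 13.21 and 13.20 in control cells and 13.03, 12.99, 12.99 and 12.97 with podofilox. Every treated value was under every control value. The mean went from 13.19 ± 0.03 to 13.00 ± 0.02 (SD, n = 4 each), a 1.14-fold fall (difference -0.19, SE 0.04, 95% interval -0.28 to -0.11, limma adjusted p = 0.00621). With 2 arrays a group it no longer passed, at -0.16 within arrays 1 and 2 (limma adjusted p = 0.169) and -0.22 within arrays 3 and 4 (0.0536). Its other probe set differed by -0.21 and also passed the test over all probe sets. The suffixes of both probe sets (_x_at and _s_at) mark probes that may hybridize to related transcripts, and the H4 copies encode the same protein from near-identical coding sequences, so the signal may be shared with other H4 genes. The 11 other clustered H4 genes did not pass the test.

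H2BC21, an H2B gene known to give tailed mRNA outside S phase, was the clustered gene that rose. It stood at 5.44, 5.31, 5.37 and 5.77 on the control arrays and at 5.72, 5.79, 5.90 and 5.81 with podofilox. Control array 4 lay above podofilox array 1, so the groups overlap. The mean went from 5.47 ± 0.20 to 5.81 ± 0.08 (SD, n = 4 each), a 1.26-fold rise (difference 0.34, SE 0.09, limma adjusted p = 0.0264). The call was lost without control replicate 1, 2 or 3 or podofilox replicate 2, 3 or 4, at limma adjusted p up to 0.0691, and with array weights (0.18, limma adjusted p = 0.205). Within arrays 3 and 4 H2BC21 differed by 0.29 and did not pass. Its other probe sets, a pair with identical values on every array, differed by 0.16 and did not pass, nor did the mean of all 3 (0.22, limma adjusted p = 0.146).

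H2AC20, which starts 235 bases from H2BC21 in the other direction, encodes H2A and had a difference of the opposite sign. Its values were 6.71, 7.09, 7.08 and 7.09 in control cells and 6.85, 6.78, 6.88 and 6.77 with podofilox, a difference of -0.17 (SE 0.08, limma adjusted p = 0.187). Control array 1 lay below every podofilox array and the other 3 control arrays above them. Without control array 1 the difference was -0.27 and passed the test (limma adjusted p = 0.00619). That array was singled out after its value was seen. On the other, dimmer probe set of H2AC20 the groups overlapped, and its difference of -0.02 did not pass. Among the 63 members matched to a promoter, those starting back to back within 1000 bases formed 12 pairs, from 193 to 978 bases apart. Both genes had a difference of the same sign in 8 pairs and of opposite sign in 4. Of the paired genes only H2BC21 passed the test on all arrays. Of the 67 uncalled members 45 changed sign under some other processing or choice of arrays, so these sign counts carry little weight. Members not matched to a promoter could not enter a pair. Besides H2BC21 and H2AC20, the opposite pairs were H2AC7 and H2BC7, H2BC8 and H2AC8, and H2AC14 and H2BC14, none of which passed the test.

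The clustered genes listed as giving tailed mRNAs (H1-2, H2AC6, H2BC4, H2BC5, H2BC12 and H2BC21) all had differences above 0 on their brightest probe sets, from 0.10 to 0.34, with a median of 0.20 beside 0.0069 for all genes. Of the 6, 1 rose and 0 fell, where 8.55% of all genes rose and 12.5% fell. The list was drawn with earlier results of these data known, so the shared sign is a description. H2BC5 stood at 7.05, 7.17, 7.03 and 7.09 in control cells and at 7.52, 7.42, 7.08 and 7.30 with podofilox, with podofilox array 3 inside the control range (difference 0.24, SE 0.09, limma adjusted p = 0.0732). H2AC6 stood at 6.06, 6.00, 6.30 and 6.25 in control cells and at 6.48, 6.38, 6.29 and 6.26 with podofilox (difference 0.20, SE 0.08, limma adjusted p = 0.0949). H1-2, a linker histone, stood at 7.52, 7.54, 7.64 and 7.49 in control cells and at 8.04, 7.84, 7.44 and 7.65 with podofilox (difference 0.19, SE 0.11, limma adjusted p = 0.245). For H1-2 and H2AC6 the arrays numbered 1 and 2 carried the difference. H2BC12 stood at 8.85, 9.02, 8.91 and 8.90 in control cells and at 8.93, 9.05, 9.08 and 9.01 with podofilox, with overlap (difference 0.10, SE 0.05, limma adjusted p = 0.212). H2BC4, a dim gene, stood at 3.48, 3.59, 3.34 and 3.40 in control cells and at 3.55, 3.38, 3.68 and 3.60 with podofilox, also with overlap (difference 0.10, SE 0.07, limma adjusted p = 0.400). The shared sign holds for the brightest probe sets: the other set differed by -0.14 for H2BC12 and by -0.17 for H2BC4, and neither passed. Without podofilox replicate 3, both H1-2 and H2BC5 passed, and H2BC21 did not.

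The arrays numbered 1 and 2 and those numbered 3 and 4 stood apart in each group on the 18S ribosomal RNA control probe sets, a transcript without a tail. The mean of the 3 sets was 12.89 on control arrays 1 and 2, 12.59 on control arrays 3 and 4, 12.03 on podofilox arrays 1 and 2 and 12.42 on podofilox arrays 3 and 4. The 18S level was therefore lower with podofilox in both pairs, by 0.86 and 0.17, and its ranges (12.59 to 12.92 and 12.01 to 12.42) did not overlap. Over the same pairs H1-2 differed by 0.40 and -0.02, H2AC6 by 0.40 and 0.0021, H2BC5 by 0.36 and 0.13, H2BC21 by 0.38 and 0.29, and H4C3 by -0.16 and -0.22. The median of the 6 genes listed as tailed came to 0.37 over arrays 1 and 2 and to 0.14 over arrays 3 and 4, with 5 of 6 above 0 in each. The part of the 18S signal in these results was not tested. The 3′ minus 5′ difference of the ACTB control sets, a measure of RNA integrity, ran from 0.12 to 0.20 on control arrays and from 0.11 to 0.26 on podofilox arrays.

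**Figure D2:**
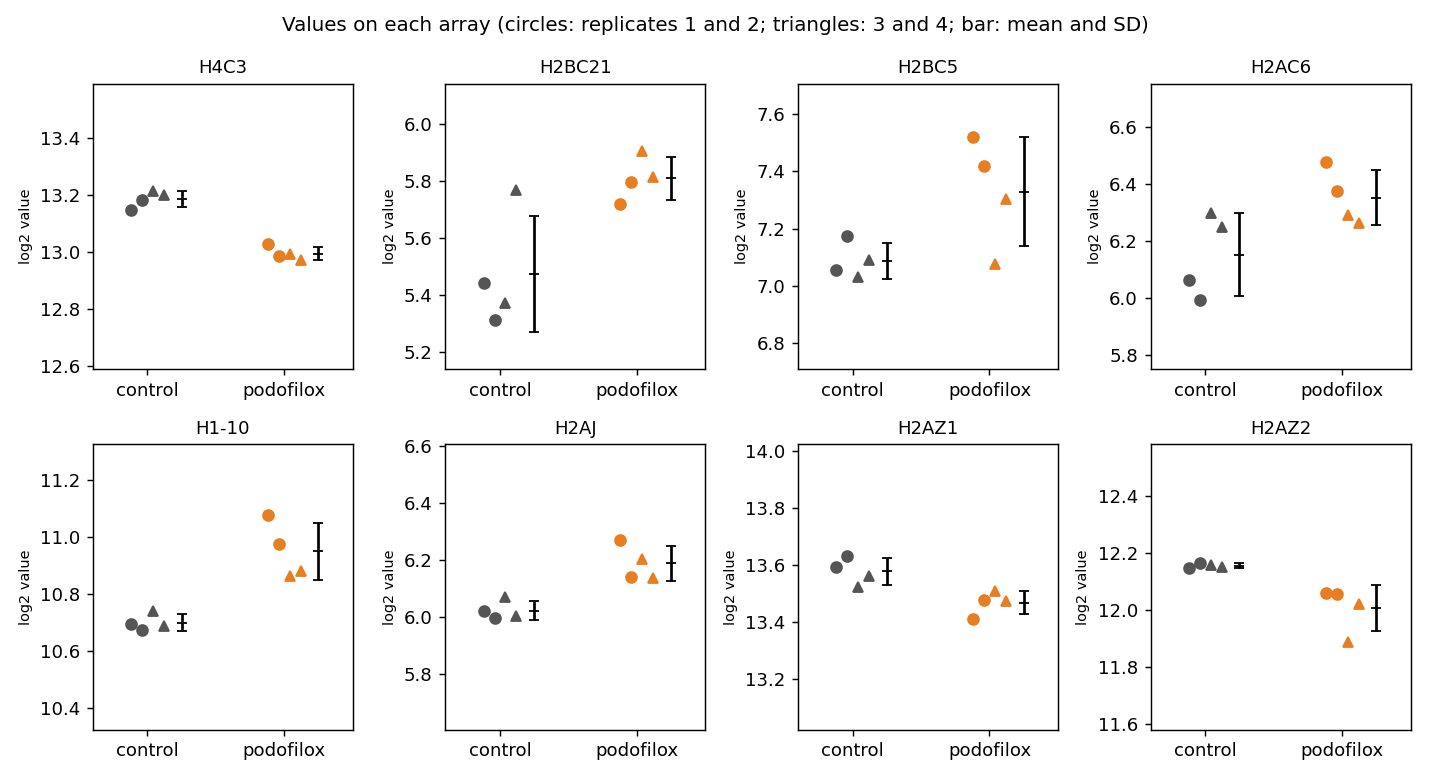
Log2 values of 8 histone genes on each of 4 control and 4 podofilox arrays, with circles for replicates 1 and 2, triangles for replicates 3 and 4, and the mean with its SD beside them. Each panel spans the same height on the log2 scale. H4C3, H2AZ1 and H2AZ2 lie lower and H1-10 and H2AJ higher on every podofilox array, while H2BC21, H2BC5 and H2AC6 overlap between groups.

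Among the variant genes, 2 of 7 rose (8.55% of all genes did) and 0 fell (12.5% of all genes did), with a median difference of -0.04. The groups were separate for 4 of the 7, 2 with podofilox above (H1-10 and H2AJ) and 2 with it below (H2AZ1 and H2AZ2). Of all genes 10.6% were separate with podofilox above and 15.6% with it below. Of the 9066 genes brighter than the median gene, 1369 were separate with podofilox above and 2480 with it below. At an unadjusted p under 0.05, 4 of the 7 differed, where 33.3% of all genes and 47.8% of bright genes did, and with other settings of the same limma test 0 to 2 of them fell. H1-10, a linker histone variant also called H1x, rose most. Its values were 10.70, 10.67, 10.74 and 10.69 in control cells and 11.08, 10.97, 10.86 and 10.88 with podofilox, with no overlap. The mean went from 10.70 ± 0.03 to 10.95 ± 0.10 (SD, n = 4 each), a 1.19-fold rise (difference 0.25, SE 0.05, 95% interval 0.13 to 0.37, limma adjusted p = 0.00861). Arrays 1 and 2 gave 0.34 and arrays 3 and 4 gave 0.16, the second of which did not pass (limma adjusted p = 0.131). Its other probe set was also higher on all 4 podofilox arrays (0.17, limma adjusted p = 0.0685). The antisense RNA that starts beside it, H1-10-AS1, differed by -0.05 and did not pass.

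H2AJ, a tailed H2A variant known from epithelial and senescent cells, stood at 6.02, 6.00, 6.07 and 6.00 in control cells and at 6.27, 6.14, 6.20 and 6.14 with podofilox. The groups do not overlap, and the mean went from 6.02 ± 0.03 to 6.19 ± 0.06 (SD, n = 4 each), a 1.12-fold rise (difference 0.17, SE 0.05, limma adjusted p = 0.0263). Its other, dimmer probe set differed by -0.04, and the mean over both (0.06, limma adjusted p = 0.497) did not pass the test. It was also lost without control replicate 1, 2 or 4 or podofilox replicate 1, at limma adjusted p up to 0.0795, and within arrays 1 and 2 (0.20, limma adjusted p = 0.150) and arrays 3 and 4 (0.13, limma adjusted p = 0.202).

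H2AZ1 and H2AZ2 encode the isoforms of H2A.Z, which marks promoters and other regulatory DNA. H2AZ1 stood at 13.59, 13.63, 13.52 and 13.56 in control cells and at 13.41, 13.48, 13.51 and 13.47 with podofilox. The groups were separate on each of its 4 probe sets, with podofilox lower, and the differences of the sets ran from -0.13 to -0.09. The brightest set differed by -0.11 (SE 0.04, 95% interval -0.21 to -0.01) and did not pass the test (limma adjusted p = 0.103), while the mean of the 4 sets passed it (-0.11, limma adjusted p = 0.0398).

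H2AZ2 stood at 12.15, 12.17, 12.16 and 12.15 in control cells and at 12.06, 12.06, 11.89 and 12.02 with podofilox, again with no overlap. Its difference was -0.15 (SE 0.05, 95% interval -0.25 to -0.04), just outside the threshold (limma adjusted p = 0.0509), and median centring of the arrays brought it past (-0.14, limma adjusted p = 0.0463). The other 4 probe sets of H2AZ2 overlapped between groups, with differences from -0.05 to 0.07. Among genes brighter than the median gene alone, both H2A.Z genes fell (limma adjusted p = 0.0337 for H2AZ1 and 0.0146 for H2AZ2).

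H2AX, which is phosphorylated around DNA breaks, stood at 11.06, 11.18, 10.97 and 11.08 in control cells and at 10.93, 11.05, 11.04 and 11.01 with podofilox. The groups overlap, and the difference of -0.06 (95% interval -0.18 to 0.06) did not pass the test (limma adjusted p = 0.476). H1-7 and H1-8 are linker histones of male and female germ cells, and both were dimmer than the median gene. H1-7 stood at 5.64, 5.45, 5.65 and 5.60 in control cells and at 5.61, 5.57, 5.77 and 5.49 with podofilox (difference 0.02, limma adjusted p = 0.844). H1-8 stood at 5.52, 5.50, 5.58 and 5.54 in control cells and at 5.70, 5.40, 5.47 and 5.42 with podofilox (difference -0.04, limma adjusted p = 0.709). The groups of each overlap.

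The probe sets of a gene did not always read the same way. Of the 35 members with more than 1 probe set, all sets had a difference of the same sign in 20 and of both signs in 15. Over all single-gene probe sets, 4 of the 125 histone sets rose and 4 fell, where 7.83% and 10.2% of the 44988 did. Besides the sets of H4C3, H2BC21, H1-10 and H2AJ already described, these were dimmer sets of H2BC11 (0.33, limma adjusted p = 0.0210), H2BC9 (-0.44, limma adjusted p = 0.0141) and H3C10 (-0.20, limma adjusted p = 0.0218). The 3 sets of H2BC9 had differences of -0.44, -0.23 and -0.05, and the 3 of H2BC11 had 0.33, 0.13 and 0.05. H4C12 had a set at 0.21 (limma adjusted p = 0.0564 over genes) and another at -0.16, so its direction depends on the probes.

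**Figure D3:**
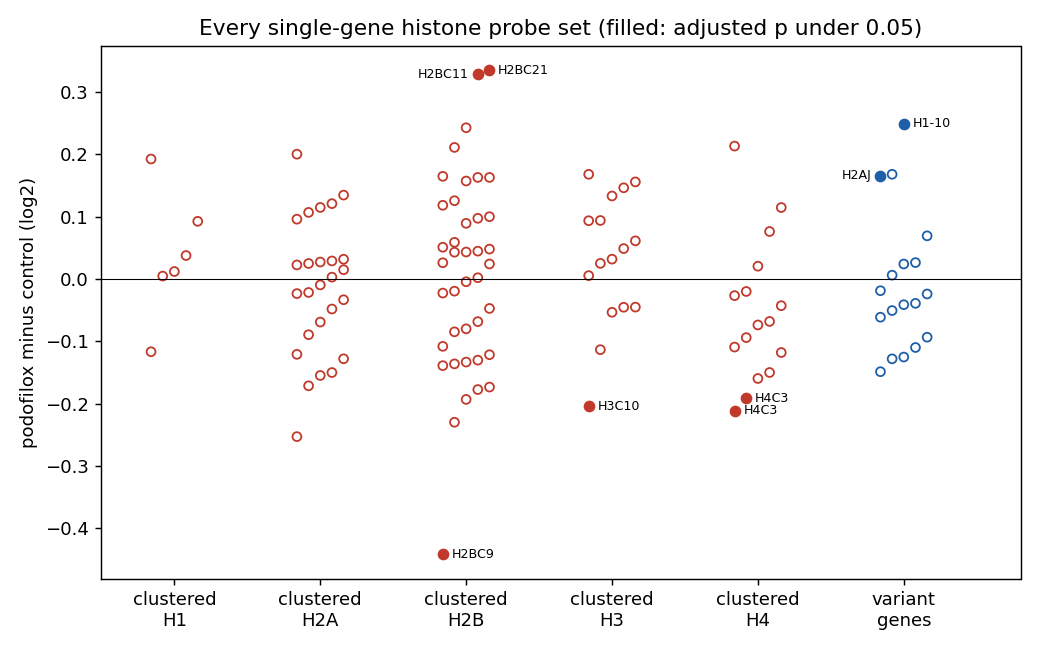
Difference between podofilox and control (log2) of each single-gene histone probe set except those of the antisense and pseudogenes, by family for the clustered genes (red) and together for the variant genes (blue), with filled and named points for sets past the test over all single-gene probe sets. Filled points lie on both sides of 0, from -0.44 (H2BC9) to 0.34 (H2BC21).

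Probe sets assigned to several histone genes are outside the rule, and 9 of them touch its families. Of these, the pair assigned to H2AC18 and H2AC19, neighbouring H2A genes, rose. The first stood at 7.69, 7.72, 7.84 and 7.72 in control cells and at 8.27, 8.35, 8.03 and 8.25 with podofilox, a 1.40-fold rise (difference 0.48, SE 0.07, limma adjusted p = 0.00120 over all probe sets that are no control). The second rose by 0.34 (SE 0.07, limma adjusted p = 0.00746), and neither set overlapped between the groups. Within arrays 1 and 2 they differed by 0.60 and 0.49, and within arrays 3 and 4 by 0.37 and 0.20. The other 7 shared sets did not pass, with differences from -0.27 (H4C12 and H4C11) to 0.18 (H3C14 and H3C15). Over all 49293 probe sets tested in this way 7.67% rose and 10.1% fell.

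The genes that switch on histone transcription, cut the mRNA and place the protein were read from lists. These lists, and those of other variants and of DNA replication below, were drawn with earlier results of these data known. Their counts are descriptions. Of 20 measured genes of histone mRNA transcription and 3′ processing, 7 fell and 2 rose (median difference -0.06). Of the 20, 16 are brighter than the median gene, where 21.5% of all genes fell and 12.4% rose. The fall of YY1 and the rise of ERI1, both counted here, were lost on leaving out any of 6 and 5 single arrays (limma adjusted p up to 0.0969 and 0.112). CCNE2 and CCNE1, the cyclins E that activate histone transcription at the start of S phase with CDK2, differed by -0.54 (SE 0.07, limma adjusted p = 0.000548) and -0.24 (SE 0.05), whereas CDK2 itself rose by 0.22 (SE 0.04). CPSF2 and CPSF3, subunits of the machinery that cuts histone pre-mRNA, differed by -0.24 and -0.28, and CSTF2, which takes part in the same step, by -0.27. The call of CCNE1 was lost without _x_at and _s_at probe sets (-0.11, limma adjusted p = 0.258) and that of CSTF2 as the mean of its sets (-0.21, limma adjusted p = 0.0567). SLBP, which binds the stem-loop, fell by 0.18 (limma adjusted p = 0.0243), but not without control replicate 2 or 4 or podofilox replicate 1 or 4, where the limma adjusted p was up to 0.0768. The transcription coactivator NPAT (-0.08) and HINFP (0.01), which binds H4 promoters, did not pass.

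Of 28 measured histone chaperones and deposition factors, 12 fell and 1 rose (median -0.14). Of the 28, 27 are brighter than the median gene, where 21.5% of all genes fell and 12.4% rose. Among the 12, ASF1B, CHAF1B and NAP1L4 were lost on leaving out 7, 7 and 8 of the 8 arrays in turn (limma adjusted p up to 0.0902, 0.113 and 0.127). NASP, which holds the reserve of H3 and H4, differed by -0.39 (SE 0.04, limma adjusted p = 0.000179), and CHAF1A, the large subunit of the factor that loads histones behind the replication fork, by -0.33 (SE 0.04). SRCAP, the motor that exchanges H2A for H2A.Z, differed by -0.40 (SE 0.05), the importins IPO9 and IPO4 by -0.37 and -0.35, and SSRP1, a subunit of FACT, by -0.27. The fall of IPO9 did not pass as the mean of its probe sets (-0.08, limma adjusted p = 0.112). HJURP, the chaperone of the centromeric histone CENPA, rose by 0.23 (SE 0.05, limma adjusted p = 0.00672).

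Of 6 other histone variants, MACROH2A1 fell (-0.28, SE 0.04, limma adjusted p = 0.000665) and H3-3B, a gene for the replication-independent H3.3, rose by 0.12 (SE 0.04, limma adjusted p = 0.0445). Of all genes 12.5% fell and 8.55% rose, and of bright genes 21.5% and 12.4%. The 2 called variants are bright, whereas 3 of the 6 lay under 5. The H3-3B call held without podofilox replicate 3 and was lost without any other single array (limma adjusted p up to 0.119). CENPA differed by -0.07 and did not pass. All 16 genes of a DNA replication list fell, with a median of -0.31 and differences from -0.56 (MCM2) to -0.19 (MCM3). MCM3 did not pass without control replicate 3 or 4 or podofilox replicate 2 (limma adjusted p up to 0.0666) or within either array pair. MCM5 (limma adjusted p = 0.0463) did not pass without any 1 array other than podofilox replicate 1 (up to 0.117). The replication genes are all brighter than the median gene, where 21.5% of all genes fell, whereas 6 of the 61 clustered histone genes are. The difference between these lists was not tested.

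**Figure D4:**
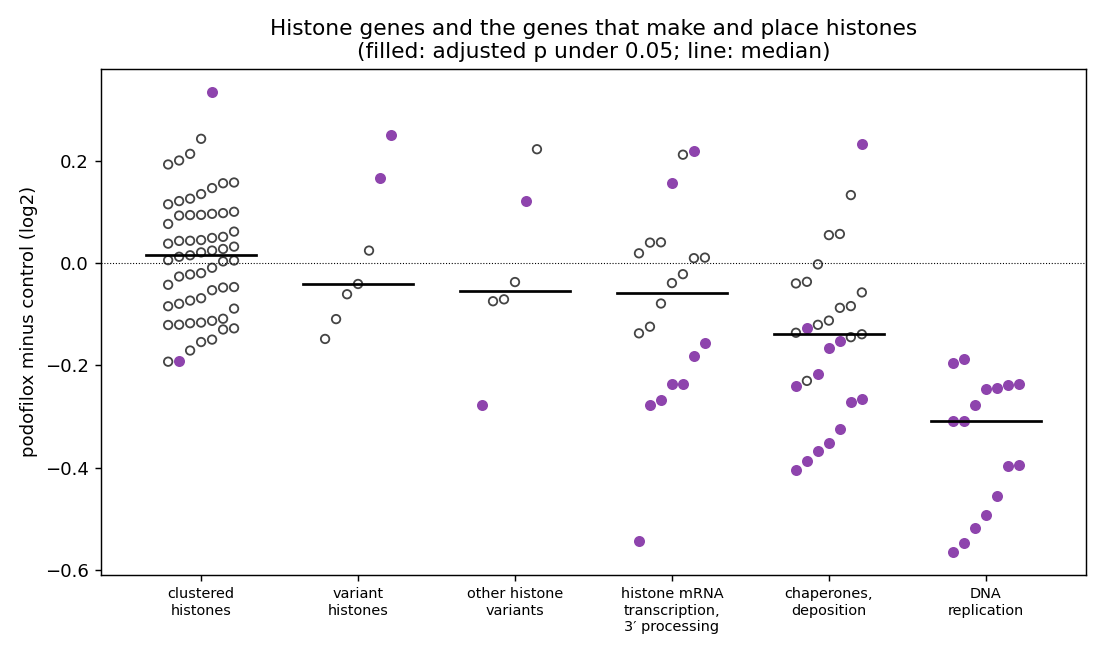
Difference between podofilox and control (log2) of single genes in 6 groups, with filled points for genes past the test and a line at each median. The medians are 0.02 for clustered and -0.04 for variant histones, -0.05 for other histone variants, -0.06 for histone mRNA genes, -0.14 for chaperones and -0.31 for DNA replication, where every point is filled.

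Deposited array medians ran from 6.39 to 6.45. Epithelial markers of the line were bright, with EPCAM, keratins and claudins at 11.8 to 13.3. Of the 6, 2 rose (CLDN4 and CLDN7), where 12.4% of all bright genes did. Means of 6 fibroblast markers were 4.63 to 4.86 in control cells and 4.70 to 4.82 with podofilox, of 4 immune markers 5.11 to 5.25 and 5.20 to 5.31, and of 5 endothelial markers 5.66 to 6.02 and 5.69 to 5.87. Of these 15 genes CD68 rose and CDH5 fell, where 8.55% of all genes rose and 12.5% fell. Their part in the histone values was not tested.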

How the data were processed

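AGS control and podofilox arrays (4 each) were read from the table of log2 expression values that the authors deposited; per the submitters' processing notes these were made with RMA, and the software version is not stated there. Symbols came from the platform annotation. Of 49395 probe sets, 102 were controls, 1832 were assigned to several genes and 2473 to none. Each gene was its brightest single-gene probe set. Differences were tested with limma 3.58.1 (R 4.3.3; lmFit and eBayes, no filter, no block), with Benjamini-Hochberg adjustment, and the script was tested on simulated data. The number of arrays limits the precision.

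The members and lists were chosen with earlier results of these data known. By rule, full values are given for members past the test, variants and clustered genes listed as polyadenylated, and up to 6 genes past the test per list by smallest p. H2AC8, H2AC20, H4C12, SLBP, NPAT, HINFP, HJURP, YY1, ERI1, ASF1B, CHAF1B, NAP1L4, MCM3, MCM5, CENPA, ACTB and the markers were named after their values were seen. Other members were also named by their results, among them H2BC9, H2BC11, H3C10 and those in opposite pairs or flagged for an outlying array. Replicate numbers recur in both groups, but same-numbered arrays did not deviate together (correlations -0.13, 0.09, -0.24 and 0.06), so they were not paired. Alternatives were other normalizations, filters, weights, blocks, probe-set rules and left-out arrays. The test of probe sets assigned to several genes was added after seeing the data. Promoters came from RefSeq (GRCh38.p14). Figures used Python 3.11.15 and matplotlib 3.10.9.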

Additional observations from a re-analysis of the deposited data

Results flagged for a closer look

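Of 142 member groups of 4 arrays, 6 held an array far from the other 3 by Dixon's 95% limit, where chance flags about 1 in 20 groups. H2AC20 stood at 6.71 on control array 1, below 7.08 to 7.09 on the other control arrays. H2AC12 stood at 3.63 on podofilox array 2 and at 3.51 on the others. H2AC7 stood at 3.58 on podofilox array 1, below 3.81 to 3.85. H2BC17 stood at 4.01 on control array 3, above 3.90 to 3.91. H3C12 stood at 5.33 on podofilox array 3, above 5.24 to 5.25. H4C8 stood at 4.20 on control array 2, below 4.40 to 4.44. No array held more than 1 of these values, and none of the 6 genes passed the test on all arrays.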

How the results depend on the processing

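Of 18132 genes 3810 passed the test, and 2741 with the replicate block, 8112 of all single-gene probe sets, 1010 within arrays 1 and 2, 2300 within arrays 3 and 4, and 2706 to 3590 on leaving out 1 array. Clustered genes that rose (1) came to 0 with the mean of probe sets, 2 among genes above the median, with the replicate block and within either array pair, 3 with the array pair block, quantile normalization or an intensity trend with robust fit, 4 with array weights, and 0 to 2 on leaving out 1 array (0 without control replicate 1 or 2 or podofilox replicate 4, and 2 without podofilox replicate 1 or 3). Clustered genes that fell (1) came to 2 with array weights, 0 within either array pair, and 1 to 3 on leaving out 1 array (3 without control replicate 1, 2 without podofilox replicate 4). Without _x_at and _s_at sets 1 fell, but it is not H4C3. Both sets of H4C3 carry these suffixes, so its fall could not be read in that setting. Variant genes that rose (2) came to 1 among genes above the median, with the trend, the mean of probe sets, the replicate block and within arrays 1 and 2, to 0 within arrays 3 and 4 and without _x_at and _s_at sets, and to 1 to 2 on leaving out 1 array. H2AJ has only _s_at sets, so it does not enter the setting without them. H2BC21 and H2AJ are dimmer than the median gene, so neither enters the setting of genes above it. The 2 clustered genes that rose there were H2BC5 (limma adjusted p = 0.0305) and H4C12 (limma adjusted p = 0.0210). Variant genes that fell (0) came to 2 among genes above the median and with the trend, 1 with the mean of probe sets, median centring or array weights, and 0 on leaving out any 1 array. Within array pairs and on leaving out 1 array fewer samples enter, and 2 settings leave out called genes as described. Elsewhere the cause was not tested. With the replicate block H2AJ was lost (limma adjusted p = 0.0618) and H4C12 passed (0.0312). No called member changed sign under these settings. Of 67 uncalled members, 16 passed under some alternative and 45 changed sign under some alternative, so their signs carry little weight. Many clustered genes lie in the range of the background probe sets, which limits what their values can show.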
